A study of Mus musculus with 24 samples.

Results

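F9 and GC-2 are established mouse lines of male origin that are used as models of germ-line cells, and their RNA was compared on 6 of the 24 arrays of the series, 3 arrays labelled F9 against 3 labelled GC-2. F9 cells are embryonal carcinoma cells, the undifferentiated stem cells of a testicular teratocarcinoma, and GC-2 cells were derived from spermatocytes immortalized with the SV40 large T antigen and a temperature-sensitive p53. Both lines came from a cell repository and grew in the same medium with 10% fetal bovine serum. F9 dishes were coated with gelatin, and retinoic acid, which makes F9 cells differentiate, was left out of the medium. The labels name no other treatment of either line. Each line stands for 1 immortalized isolate, and GC-2 cells are not held to complete meiosis in culture. The arrays carried probes for long non-coding RNAs (lncRNAs) and mRNAs, labelled in 1 colour from total RNA. The remaining arrays held tissues of ICR mice and the GC-1 line. The GC-1 arrays entered only an alternative fit over the cell lines.

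Embryonal carcinoma cells share with embryonic stem cells a network of transcription and chromatin factors that holds them undifferentiated. In the male germ line, retinoic acid induces Stra8, the gene that commits spermatogonia to meiosis, and meiotic cells then make the proteins of the chromosome axis. Germ cells also run the piRNA pathway, in which small RNAs bound by PIWI proteins silence transposons, and they stay joined to each other through intercellular bridges. LncRNAs are transcripts without a known protein product that can come from imprinted loci, host small nucleolar RNAs or stay in the nucleus.

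All 60804 non-control probes were tested. A level is the log2 of the processed signal minus the log2 of that array's 75th percentile, so that 0 marks a probe as bright as this percentile. A difference is the F9 mean minus the GC-2 mean on this log2 scale. A probe was called where the limma p-value adjusted over all probes was at most 0.05, the fold at least 5 and the probe well above background on all 3 arrays of the higher line. The words higher and lower are kept for called probes. Names were available for 3295 probes, of which 3035 were lncRNAs and 260 mRNAs. They came from the study's lists of lncRNAs abundant in F9 cells or in brain, of tissue-specific lncRNAs, and of testis-specific transcripts present in a line. The lists of lncRNAs abundant in F9 or in brain and of testis-specific lncRNAs were held here only in part. The naming therefore favours lncRNAs abundant in F9, and no count over named probes stands for the whole array. An mRNA could be named only where the study flagged it as present in a line, so a gene absent from both could not enter, and a gene flagged in F9 alone was likely to be called there. Of the 66 named mRNA probes flagged in F9 and not GC-2, 57 were called. The counts and medians of the mRNA lists below are therefore descriptions.

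The 75th percentile of the signal lay between 65.5 and 146 intensity units on the 6 arrays, and each array detected between 23525 and 28655 probes well above background. The lowest level at which a probe was still well above background lay between -3.39 and -2.14. Replicate 1 of both lines was hybridised on 1 slide and replicates 2 and 3 on another, so each slide held both lines. GC-2 replicate 1 differed most from its group: 327 probes were over 8-fold above and 120 over 8-fold below the mean of the other 2 GC-2 arrays. By the same measure the values were 233 and 44 for GC-2 replicate 2 and 152 and 55 for GC-2 replicate 3. GC-2 replicate 1 was also the only GC-2 array on its slide, so the array and the slide cannot be told apart. Its correlation with GC-2 replicates 2 and 3 over all probes was 0.972 and 0.973, against 0.988 between those 2. For F9 replicate 1 the values were 0.977 and 0.978, against 0.989 between replicates 2 and 3. Counts of calls and list medians are therefore also given without GC-2 replicate 1. The labels do not say whether the 3 arrays of a line came from separate cultures, so the p-values measure the spread between these arrays, which may be technical.

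A total of 1850 probes were higher in F9, which is 3.04% of all probes, and 1873 were higher in GC-2, which is 3.08%. Together they were 6.12% of the probes. The F9 and GC-2 arrays did not overlap at 1849 of the 1850 and 1872 of the 1873, where 35.3% of all probes had lines that did not overlap. Without GC-2 replicate 1 the counts were 1921 (3.16%) and 2000 (3.29%), and 1763 of the 1850 and 1730 of the 1873 kept their call. Within the slide of replicates 2 and 3 alone, 1752 and 1718 of them were called again. On the other slide, with 1 array of each line and no test, 1649 of the 1850 and 1507 of the 1873 differed by 5-fold or more in the same direction. The arrays of both slides were part of the fit that made the calls. The median difference over all probes was 0.52, and it was 0.15 over the 20437 probes well above background on all 6 arrays. Of the probes higher in F9, 1050 were not above background on any GC-2 array, and of those higher in GC-2, 895 were not above background on any F9 array. For such probes the fold is given as a lower bound, which sets the lower line at the weakest signal still well above background on each array.

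**Figure D1:**
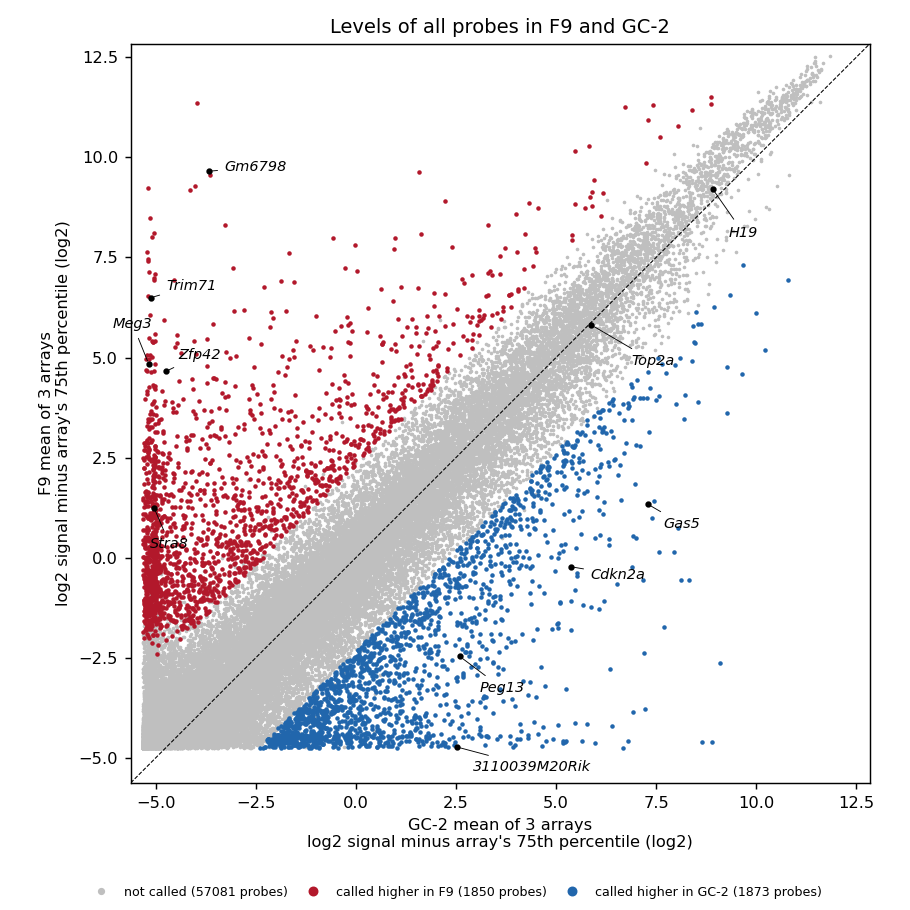
Mean level of each of the 60804 probes in GC-2 (horizontal axis) and in F9 (vertical axis), each the mean of 3 arrays on the log2 scale relative to the array's 75th percentile. Red points are the 1850 probes called higher in F9, blue points the 1873 called higher in GC-2, grey points the rest, and the dashed line marks equal levels. Zfp42, Stra8, Trim71 and Meg3 (NR_003633) lie near the left edge, where GC-2 has no signal above background, Cdkn2a and Gas5 (ENSMUST00000159890) lie far below the line, and H19 and Top2a near it.

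The marker genes separated the lines. Zfp42 (Rex1), a zinc finger gene of undifferentiated cells on chromosome 8, read 4.22, 4.77 and 4.97 in F9 and -4.79, -4.62 and -4.83 in GC-2. No GC-2 array was above background, so Zfp42 was at least 199.8-fold higher in F9 (difference 9.40, SE 0.29, n = 3 per line, limma adjusted p = 8.73e-07). Stra8, on chromosome 6, read 1.63, 0.98 and 1.14 in F9 and -5.41, -4.77 and -4.95 in GC-2. It too had no GC-2 array above background and was at least 18.9-fold higher in F9 (difference 6.29, SE 0.31, adjusted p = 5.21e-06). Without GC-2 replicate 1 the differences were 9.38 and 6.10. The F9 label thus went with its marker, whereas Stra8, a marker of germ cells about to enter meiosis, was not detected in the GC-2 line. In bulk RNA, fewer cells with a transcript and less of it in each cell cannot be told apart.

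The other identified genes of pluripotent and embryonal carcinoma cells were also higher in F9. Of the 14 genes listed, 5 were identified, through 7 probes, and all 7 probes were higher in F9, where 3.04% of all probes were. Their median difference was 6.62, and 6.39 without GC-2 replicate 1. All 7 were above background on the 3 F9 arrays, through which they could be named. Under normexp background correction, 4 of the 7 were called. Trim71, an RNA-binding ubiquitin ligase of early embryonic cells on chromosome 9, read 6.49, 6.45 and 6.54 in F9 and -5.57, -4.81 and -4.99 in GC-2. Its difference was the largest among the identified mRNAs, at least 715-fold (difference 11.62, SE 0.29, adjusted p = 3.78e-07). Zscan10, a transcription factor of embryonic stem cells, read 3.61, 3.62 and 3.80 against -4.27, -3.56 and -3.56, at least 101.6-fold higher in F9. Fbxo15, an F-box gene used as a reporter of the undifferentiated state, read 3.01, 3.37 and 3.40 against -3.82, -3.40 and -2.87, at least 75.8-fold higher. The F9 and GC-2 arrays of these genes did not overlap. Phc1, a subunit of Polycomb repressive complex 1, had 3 probes with differences of 3.57, 3.76 and 3.81, the first of which was above background on no GC-2 array (at least 10.5-fold). Among them the largest GC-2 level was -2.22 and the smallest F9 level 0.15. These mRNAs were nameable because they are testis-specific and present in a line, and Pou5f1, Nanog and Sox2 were not among the named probes.

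Of 13 early meiotic genes listed, 6 were identified, all of them above background on the 3 F9 arrays. Of these, 4 were higher in F9 and none in GC-2, beside 3.04% and 3.08% of all probes. The median difference was 3.68, and 3.42 without GC-2 replicate 1, with the same count of calls. Under normexp 1 was called. Besides Stra8 these were Hormad2, a protein of the unsynapsed chromosome axis, 4930447C04Rik (Six6os1), a part of the central element of the synaptonemal complex, and Tex15, which acts in transposon silencing and recombination. Hormad2 read 0.89, -0.08 and -0.33 in F9 and -5.36, -4.76 and -4.95 in GC-2, at least 8.86-fold higher in F9. For 4930447C04Rik the levels were -1.68, -0.23 and -0.36 against -5.44, -4.78 and -4.95, at least 4.70-fold, and for Tex15 -2.12, -1.82 and -1.83 against -5.63, -4.90 and -4.40, at least 2.10-fold. None of these 3 genes had a GC-2 array above background. The remaining 2 were present in both lines. Trip13, an ATPase that removes HORMA-domain proteins and also serves the mitotic checkpoint, read 0.66, 0.93 and 0.83 in F9 and 0.82, -0.15 and -0.16 in GC-2, so that GC-2 replicate 1 lay among the F9 arrays (difference 0.64, SE 0.33, adjusted p = 0.24). Zcwpw1, a histone reader of recombination sites, had a difference of 0.74 (SE 0.33, adjusted p = 0.17). Without GC-2 replicate 1 these values were 0.96 and 1.02, with adjusted p of 0.035 and 0.039, still under the 5-fold limit.

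Of 12 genes of the piRNA pathway and the germ cell bridge, 7 were identified through 8 probes. All 8 probes were above background on the 3 F9 arrays and none on all 3 GC-2 arrays, so the naming went through F9. Of the 8, 7 were higher in F9 and none in GC-2, beside 3.04% and 3.08% of all probes, and the median difference was 4.17, or 4.18 without GC-2 replicate 1. Under normexp 2 were called. Tex19.1, which restrains retrotransposons in germ and pluripotent cells, read 2.59, 2.74 and 2.78 in F9 and -3.75, -4.15 and -4.75 in GC-2, at least 51.6-fold higher in F9 (difference 6.92, SE 0.32, adjusted p = 3.88e-06). Rnf17, a Tudor-domain protein of germ cell granules, read 0.73, 1.41 and 1.21 against -5.38, -4.79 and -4.98, at least 17.2-fold. Tex14, which keeps the bridges open, was higher in F9 by both of its probes, with differences of 4.22 (at least 5.56-fold) and 5.74. Piwil2, a PIWI protein that binds piRNAs, and Morc1, a silencer of transposons, had mean levels below 0 in F9 and no GC-2 array above background. They were at least 2.92-fold and 4.64-fold higher in F9. Gtsf1, a small zinc finger partner of the PIWI proteins, differed by 2.94, and GC-2 replicate 1 was the only GC-2 array above background. Gpat2, an acyltransferase needed for piRNA production, was the probe that missed the call. It read -0.34, -0.20 and -0.46 in F9 and -5.45, -0.85 and -5.08 in GC-2, where replicate 2 stood apart (difference 3.46, SE 1.06, adjusted p = 0.056).

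**Figure D2:**
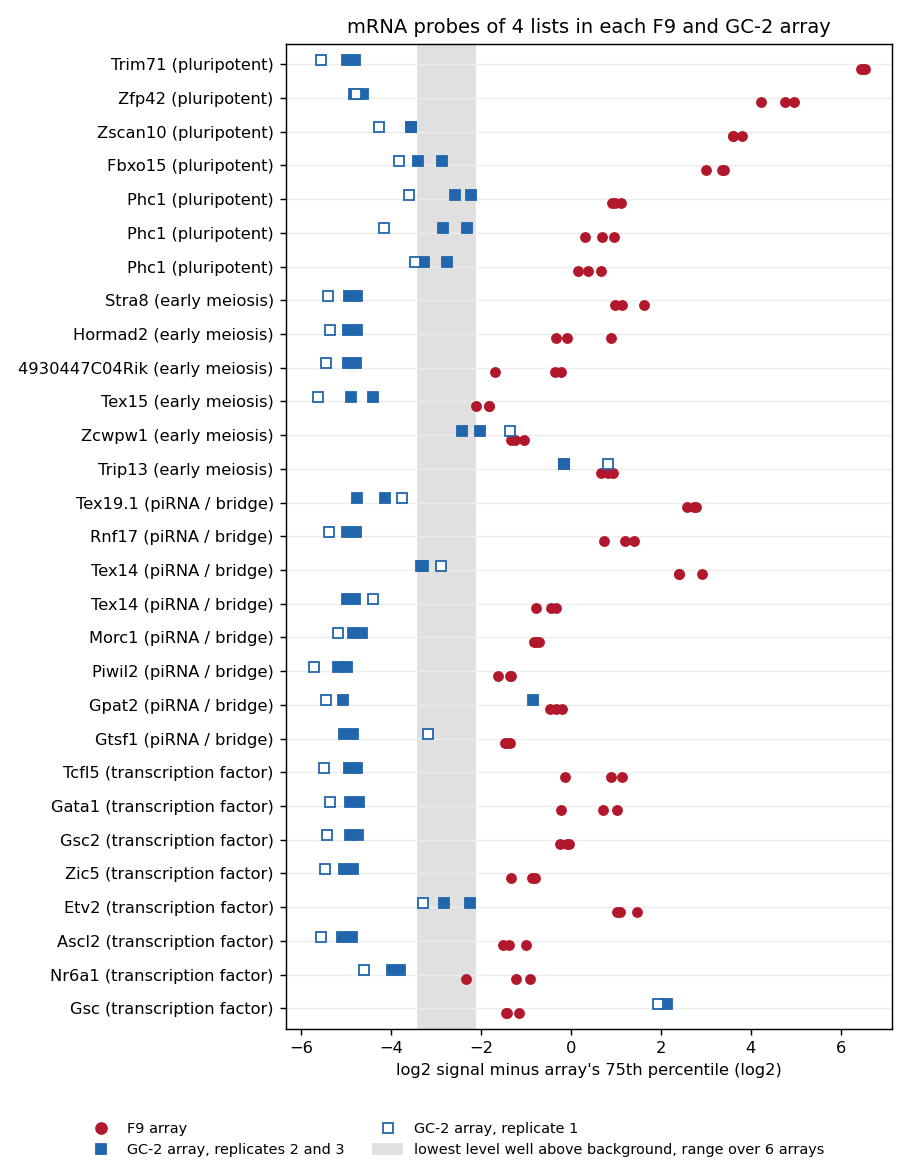
Level of the mRNA probes described here from the pluripotency, early meiosis, piRNA and bridge, and developmental transcription factor lists in every array. Red circles are F9 arrays, filled blue squares GC-2 replicates 2 and 3, open blue squares GC-2 replicate 1, and the grey band spans the lowest level well above background (-3.39 to -2.14). Most GC-2 points lie at or below the band while the F9 points lie above it, and Gsc is placed the other way round.

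Transcription factors of development were split between the lines. All 9 listed were identified, and the list was itself drawn up from the study's named transcripts. Of these, 7 were higher in F9 and 2 in GC-2, beside 3.04% and 3.08% of all probes, and 8 are described here. Tcfl5, a helix-loop-helix factor of spermatocytes, read -0.13, 1.14 and 0.90 in F9 and -5.50, -4.75 and -4.94 in GC-2, at least 12.3-fold higher in F9. Gata1, the erythroid and Sertoli cell GATA factor, read -0.22, 0.72 and 1.02 against -5.37, -4.71 and -4.90, at least 11.3-fold. Neither gene had a GC-2 array above background. Gsc2, Zic5, Ascl2 and Nr6a1 (GCNF, an orphan nuclear receptor that silences Pou5f1 during differentiation) also had no GC-2 array above background and were at least 7.27-, 3.96-, 3.24- and 2.84-fold higher in F9. Etv2 had 1 GC-2 array above background and differed by 3.98. Gsc (goosecoid), the homeobox gene of the embryonic organizer, was lower in F9, with -1.15, -1.41 and -1.44 against 1.93, 2.13 and 2.05 in GC-2 (difference -3.37, SE 0.25, adjusted p = 4.44e-05). Its relative Gsc2 was thus higher in the opposite line. The counts were again 7 and 2 when GC-2 replicate 1 was left out, whereas under normexp none of the 9 was called.

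Of the 9 chromatin genes, 3 were called and 6 were not. Of their 12 probes, 6 were higher in F9 and none in GC-2, beside 3.04% and 3.08% of all probes. The 3 genes include Phc1, already counted above, and the median difference over the 12 probes was 2.42. Leaving out GC-2 replicate 1, 7 were higher in F9 (median 2.84), and under normexp 1 was. Besides the 3 Phc1 probes they were both probes of Atf7ip2, a partner of the H3K9 methyltransferase SETDB1, with differences of 2.73 (at least 2.72-fold) and 3.39, and the Ash2l probe. Ash2l is a core subunit of the H3K4 methyltransferases of most cells. Its identified probe read 3.29, 3.50 and 3.58 in F9 and -5.59, -4.83 and -5.00 in GC-2, at least 87.3-fold (difference 8.60, SE 0.29, adjusted p = 1.41e-06). That probe was named through the list of testis-specific transcripts. Its transcript and sequence were not available here, so it may not measure the gene's total output. Suv39h2, Baz2a, Cecr2 and Atad2b had differences between -0.64 and 0.71 that missed the adjusted p. Sfmbt2 differed by 2.10 with GC-2 replicate 1 and passed the call without it, at 2.79 (adjusted p = 0.00084). Baz1a, a chromatin remodelling subunit, differed by -2.09 (adjusted p = 0.00081), short of the 5-fold limit.

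Among the nuclear pore genes, 1 of 5 was called, where 6.12% of all probes were called in either direction. The count was the same without GC-2 replicate 1, and the median difference was 0.06, or -0.11 without it. Nup62cl, an X-linked relative of the pore protein NUP62, read 3.70, 3.87 and 3.92 in F9 and was above background on no GC-2 array, at least 113-fold (difference 8.91, SE 0.29, adjusted p = 1.18e-06). The ubiquitous pore genes Nup98, Nup205 and Nup214 had differences of 0.34, 0.06 and -0.05. Nup210l, a pore gene of spermatids, read -3.63, -4.24 and -4.17 in F9, on no array above background, and -2.68, -2.16 and -1.78 in GC-2, above background on all 3 (difference -1.81, adjusted p = 0.0059, under the 5-fold limit). Zfp534, a KRAB zinc finger gene, read 3.81, 4.47 and 4.61 in F9 against -5.49, -4.58 and -4.96 in GC-2, at least 155.9-fold. Fmr1nb, an X-linked cancer and testis antigen gene, differed by 6.70, and BC055111 was at least 23.3-fold higher in F9. With Trim71, Zfp42, Zscan10, Tex19.1, Fbxo15 and Ash2l they made up the 10 identified mRNAs with the largest differences toward F9, 9 of which had no GC-2 array above background. Fmr1nb was above background on 1 GC-2 array, replicate 1.

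Genes of spermatids and sperm, the cells after meiosis, were mostly not called. Of 13 genes, 10 were identified, 1 was higher in F9 and 1 in GC-2, beside 3.04% and 3.08% of all probes. The 10 probes are too few to set against those shares. The counts were the same without GC-2 replicate 1, and the median difference was 0.04, or -0.39 without it. Qrich2, a gene of the sperm flagellum, read 2.83, 1.39 and 1.75 in F9 and -3.64, -2.63 and -3.03 in GC-2, where no array was above background, at least 31.1-fold higher in F9. Spata9 read -3.71, -4.49 and -4.46 in F9, where no array was above background, and -1.80, -1.90 and -1.74 in GC-2, at least 1.52-fold higher there (difference -2.41, SE 0.30, adjusted p = 0.00078). The Spata9 call was lost without F9 replicate 2 or replicate 3 and under normexp. Acr, the acrosin protease of the acrosome, was above background on all 6 arrays, with a difference of 0.75 (SE 0.26, adjusted p = 0.087). Actl7a, a perinuclear actin relative, differed by -0.03 (SE 0.49, adjusted p = 0.96), and the arrays of the lines overlapped. Star, which carries cholesterol into mitochondria in Leydig cells, was the only identified gene on the lists of Leydig, Sertoli and stromal cells. It read -3.43, -1.19 and -2.31 in F9 and 0.06, -2.46 and -2.25 in GC-2, and its difference of -0.76 (adjusted p = 0.45) became 0.04 without GC-2 replicate 1. No listed Sertoli cell or stromal gene was identified, and of 8 spermatogonial genes only Stra8 was.

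The identified mRNAs higher in GC-2 were fewer. Of the 260 named mRNA probes, 59 (22.7%) were higher in F9 and 13 (5.00%) in GC-2. These shares follow the study's presence flags in each line and are a description. Cdkn2a, which encodes the cell cycle inhibitors p16 and p19ARF, read 4.93, 5.57 and 5.59 in GC-2 and 0.67, -0.92 and -0.42 in F9. It was above background on all 6 arrays and 48.2-fold higher in GC-2 (difference -5.59, SE 0.43, adjusted p = 5.48e-05). Igf2bp3, an RNA-binding protein of fetal and tumour cells, read 3.04, 3.35 and 3.30 against -0.62, -1.60 and -1.66 and was 23.0-fold higher in GC-2. Cd109, a membrane-anchored protein that dampens TGF-beta signalling, was above background in GC-2 alone, with 1.82, 1.52 and 1.58, and was at least 16.6-fold higher there. The other probes among the 10 largest were 1700009N14Rik, 2610528A11Rik, Speer2, Pbp2, Drd4 and, as given above, Gsc, with 1 more that is not reported here. Drd4, a dopamine receptor gene, was above background on no F9 array and at least 1.78-fold higher in GC-2. 1700009N14Rik read -1.65, 2.26 and 2.10 in GC-2, so replicate 1 lay well under the other 2, and its difference moved from -5.60 to -6.87 without it (no F9 array above background, at least 9.99-fold).

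The named genes of cell division were present in both lines, and their share of calls was near that of all probes. All 29 mitosis genes listed were identified, and 28 of them had probes above background on all 6 arrays. These genes, and those of DNA replication and repair below, could be named only where the study flagged them as present in a line. Their detection therefore partly follows the naming. Of the 29, 1 was called (3.45%), where 3.04% of all probes were higher in F9 and 3.08% in GC-2. Their differences ran from -1.10 to 3.29 with a median of 0.15, or 0.10 without GC-2 replicate 1. Under normexp none was called. The called gene was Bora, an activator of Aurora A and Plk1, with 2.07, 2.20 and 1.93 in F9 and -0.80, -1.15 and -1.71 in GC-2 (difference 3.29, SE 0.31, adjusted p = 0.00016). Top2a, the topoisomerase of dividing cells, read 5.97, 5.56 and 5.90 against 5.83, 6.01 and 5.81, with overlapping arrays and a difference of -0.07 (SE 0.26). Kif11, the motor of the bipolar spindle, read 3.53, 3.63 and 3.75 against 3.62, 3.51 and 3.56, a difference of 0.07 (SE 0.24). By adjusted p alone, without the fold limit, 6 of the 29 were above and 1 below in F9, where 9.99% and 8.42% of all probes were. Of 16 probes for 15 genes of DNA replication and repair, none was called, where 6.12% of all probes were called in either direction. Their differences ran from -1.32 for Neil3, a DNA glycosylase, to 1.14 for Skp2, a subunit of an SCF ubiquitin ligase.

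**Figure D3:**
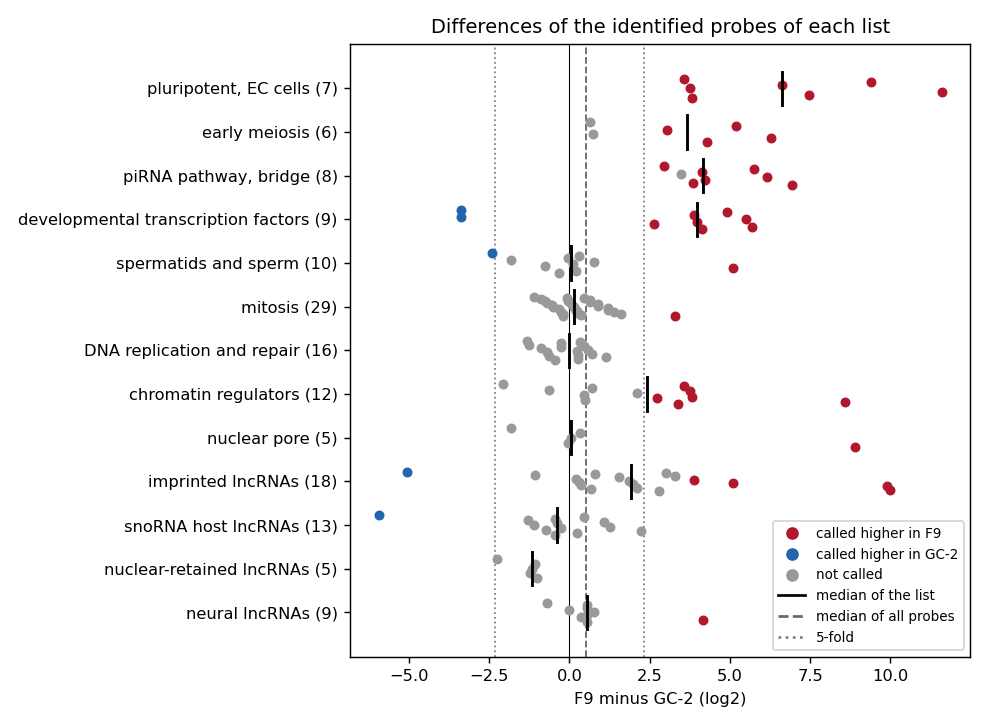
Difference F9 minus GC-2 (log2, horizontal axis) of each identified probe, by list, with the number of probes in brackets. Red points were called higher in F9, blue points higher in GC-2 and grey points were not called, the black bars are the lists' medians, the dashed line the median of all probes (0.52) and the dotted lines mark 5-fold. The pluripotency, meiosis and piRNA lists lie to the right of the dotted line at their medians, while the mitosis and replication lists lie around 0. The mRNAs were named through the study's presence flags, so the lists are descriptions.

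Among the named lncRNAs, 158 of 3035 probes (5.21%) were higher in F9 and 84 (2.77%) in GC-2. Many of these names came from the lncRNAs most abundant in F9, so this balance is partly set by the naming. A set named without either line were the 1553 lncRNA probes abundant in brain. Of these, 34 (2.19%) were higher in F9 and 41 (2.64%) in GC-2, against 3.04% and 3.08% of all probes, and 1469 were above background on all 6 arrays. By position relative to coding genes, 15 of the 376 exonic sense probes of that set were higher in GC-2 and 11 in F9, of the 813 intergenic probes 22 and 18, and of the 80 exonic antisense probes none was called.

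The 4 largest differences in the whole named set belonged to short intergenic transcripts higher in F9, named Gm6798, Gm5229, Gm6083 and Gm11649. RefSeq lists the first 3 as pseudogenes, and Gm11649 has no RefSeq gene in the reference used. They lie apart on GRCm38, at chrX:8654465-8654824, chr17:78177590-78177947, chr5:29538153-29538509 and chr11:107531931-107532305. Their probes are shown because they resemble each other in pairs. Capitals mark runs of at least 15 bases that also occur in another of the 4 probes.
Gm6798: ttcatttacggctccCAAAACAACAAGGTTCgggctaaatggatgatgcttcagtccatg
Gm6083: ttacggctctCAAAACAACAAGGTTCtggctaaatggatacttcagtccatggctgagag
Gm5229: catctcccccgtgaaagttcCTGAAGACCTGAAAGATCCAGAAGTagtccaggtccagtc
Gm11649: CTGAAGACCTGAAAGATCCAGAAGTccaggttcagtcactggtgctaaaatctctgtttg

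The Gm6798 and Gm6083 probes share a run of 16 bases and the Gm5229 and Gm11649 probes one of 25 bases. Between the pairs the longest shared run was 7 bases. Transcripts that resemble each other within a pair may bind each other's probes, which was not tested, and the annotation lists no second target for the 4 probes. Probes on different stretches of 1 RNA need not share a run. Whether all 4 probes read related transcripts, or a common parent gene of the pseudogenes, was not tested. The values of the 4 may therefore not be independent and cannot be assigned to 1 locus with certainty. Gm6798 read 9.45, 9.67 and 9.85 in F9 and -3.06, -4.29 and -3.67 in GC-2 (difference 13.33, SE 0.35, adjusted p = 4.47e-07). Gm11649 read 6.80, 7.03 and 7.12 in F9 and was above background on no GC-2 array, at least 1007-fold (difference 12.03). Gm5229 and Gm6083 differed by 13.29 and 13.19, with 1 GC-2 array above background each. The F9 arrays of all 4 lay far above every GC-2 array.

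The next largest differences toward F9 came from transcripts at coding genes and from a locus on the X chromosome. AK171116 lies in sense over an exon of Laptm5, and the array's annotation lists the Laptm5 mRNA as a second target of its probe. It read 7.18, 6.71 and 6.88 in F9 with no GC-2 array above background, at least 964-fold. BC025019, over an exon of Hook1, was at least 483-fold higher, also with a listed second target. The Tdh transcript comes from the gene of threonine dehydrogenase, an enzyme that is highly active in mouse embryonic stem cells. It read 5.31, 5.58 and 5.54 in F9 and -5.54, -4.87 and -5.08 in GC-2, at least 353-fold (difference 10.64, SE 0.28, adjusted p = 4.47e-07). On the X chromosome, BC100492 (plus strand, chrX:101794686-101798640) starts 2351 bases beyond the Gm4779 transcript of this probe (minus strand, chrX:101790348-101792334). The 2 transcripts thus run away from each other. The RefSeq span of Gm4779 reaches further, to 101794468, and so ends closer to BC100492. BC100492 read 5.81, 5.20 and 5.20 and Gm4779 4.57, 5.13 and 5.16 in F9, both with no GC-2 array above background, at least 336-fold and 246-fold higher. RefSeq lists Gm4779 as protein coding. A second Gm4779 probe, for an overlapping transcript (chrX:101791225-101793308), read 8.36, 8.58 and 8.88 in F9 and 8.41, 8.36 and 8.68 in GC-2, with overlapping arrays and a difference of 0.12 (SE 0.27, adjusted p = 0.74). Of all called lncRNAs with positions, 8 pairs lay within 10000 bases of each other or overlapped, and both members of all 8 pairs were called in the same direction. Only called lncRNAs entered this count, and some pairs overlap on the same strand, so their probes may read the same RNA. The agreement is therefore a description. Of these pairs, 3 come from this X-linked locus, where 8030474K03Rik overlaps BC100492 and was higher in F9 by 8.07 (named after its values were seen).

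**Figure D4:**
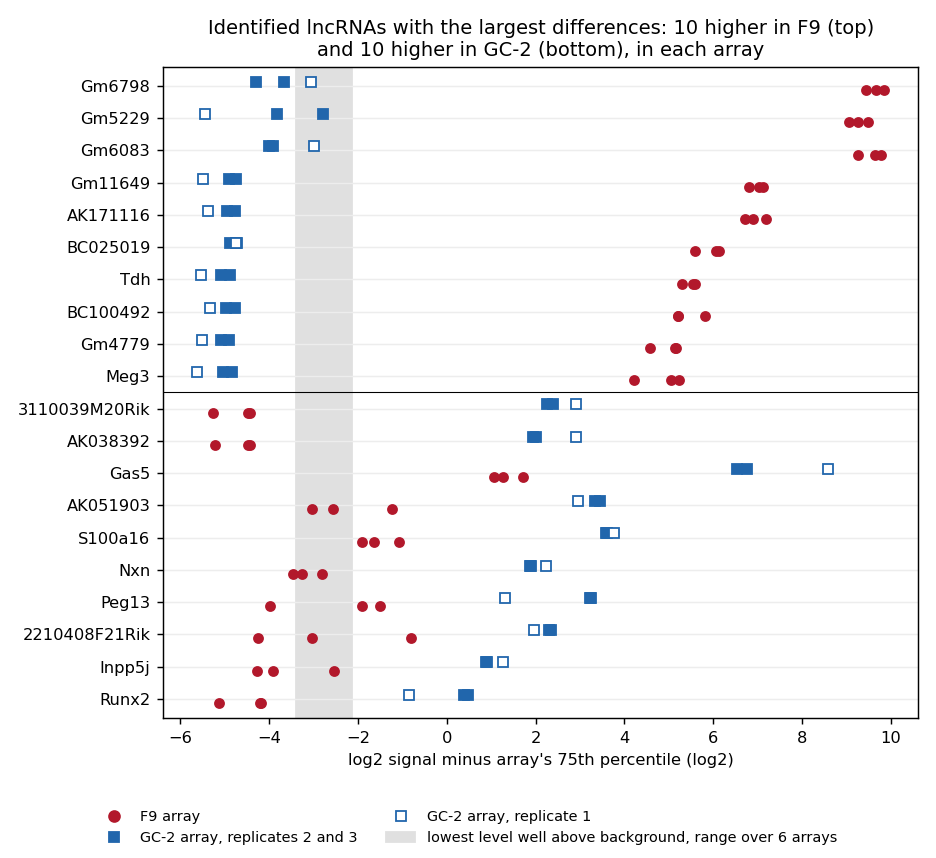
Level of the identified lncRNAs with the largest differences in every array, 10 higher in F9 above the line and 10 higher in GC-2 below it. Red circles are F9 arrays, filled blue squares GC-2 replicates 2 and 3, open blue squares GC-2 replicate 1, and the grey band spans the lowest level well above background. The differences run from 10.00 to 13.33 among the F9-high lncRNAs and from -7.24 to -4.52 among the GC-2-high ones. The naming favours lncRNAs abundant in F9.

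Among the named lncRNAs, those higher in GC-2 showed smaller gaps. The names included a list of lncRNAs abundant in F9 but none for GC-2, so this contrast partly follows the naming. 3110039M20Rik, on chromosome 12, read 2.91, 2.38 and 2.26 in GC-2 and was above background on no F9 array, at least 30.5-fold (difference -7.24, SE 0.34, adjusted p = 4.23e-06). AK038392 was at least 26.1-fold higher in GC-2 (difference -7.01), and AK051903 46.2-fold (difference -5.53). All 3 are on the study's lists of tissue-specific lncRNAs. Transcripts of the coding genes S100a16, a calcium-binding protein, Nxn (nucleoredoxin) and Inpp5j, a phosphoinositide phosphatase, had differences of -5.19, -5.19 and -4.60 (Nxn at least 20.8-fold, with no F9 array above background), and those of S100a16 and Inpp5j lie in sense over exons. A transcript of Runx2, the osteoblast transcription factor gene, differed by -4.52 and was at least 5.37-fold higher in GC-2. Where such a transcript shares exons with the mRNA, the probe value does not tell them apart.

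The lncRNA 2210408F21Rik on chromosome 6 was higher in GC-2 by all 5 of its probes, with differences from -4.90 to -3.12. The probes are shown because they overlap each other within 2 sets. Capitals mark at least 15 bases shared with another of the 5.
NR_040261: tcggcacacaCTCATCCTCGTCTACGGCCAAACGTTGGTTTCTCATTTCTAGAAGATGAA
NR_040259: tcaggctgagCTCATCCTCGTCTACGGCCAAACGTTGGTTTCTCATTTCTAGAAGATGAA
ENSMUST00000136571: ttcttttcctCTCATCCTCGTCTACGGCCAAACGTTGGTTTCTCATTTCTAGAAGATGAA
ENSMUST00000139444: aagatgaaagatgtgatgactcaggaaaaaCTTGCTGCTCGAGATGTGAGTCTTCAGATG
ENSMUST00000138653: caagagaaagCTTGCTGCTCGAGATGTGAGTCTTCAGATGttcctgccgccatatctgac

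The first 3 probes, for different transcripts, differ in their first 10 bases and share the next 50, and the last pair shares 30, so the readings within each set are not independent. The NR_040261 probe read 1.95, 2.29 and 2.35 in GC-2 and -0.81, -4.25 and -3.03 in F9, where replicate 1 alone was above background (difference -4.90, SE 0.75, adjusted p = 0.0024).

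The imprinted lncRNAs were called in both directions. Imprinted genes are expressed from the maternal or the paternal copy only. Of 8 listed, 7 were identified through 18 probes, of which 4 probes of 2 genes were higher in F9 and 1 was higher in GC-2, beside 3.04% and 3.08% of all probes. The counts were the same when GC-2 replicate 1 was left out, under normexp 2 were higher in F9, and without F9 replicate 3 the count in F9 was 7. The 4 were 2 of 7 probes of Meg3 and 2 of 4 of Rian, which lie next to each other in the Dlk1-Dio3 domain of chromosome 12 and are expressed from the maternal copy. Rian, a snoRNA host, was above background on no GC-2 array by any of its 4 probes. Its ENSMUST00000180876 probe read 0.58, 0.39 and -0.53 in F9 and -5.44, -4.77 and -4.68 in GC-2, at least 8.79-fold (difference 5.11, SE 0.38, adjusted p = 4.25e-05).

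The probes of Meg3, an lncRNA that is active in mouse stem cells with full developmental potential, did not read alike. The 6 with a known sequence are shown because they mark different stretches of the locus (GRCm38 chr12:109540996-109571729, plus strand), and no pair of them shares a run of 15 bases.
NR_003633: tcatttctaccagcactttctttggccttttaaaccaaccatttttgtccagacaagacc
ENSMUST00000129245: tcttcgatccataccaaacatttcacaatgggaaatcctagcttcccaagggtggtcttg
uc007pat.2: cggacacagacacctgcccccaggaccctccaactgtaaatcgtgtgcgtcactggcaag
ENSMUST00000150851: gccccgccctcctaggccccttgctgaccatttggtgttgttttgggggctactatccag
NR_046475: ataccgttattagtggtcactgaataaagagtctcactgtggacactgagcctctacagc
NR_027651: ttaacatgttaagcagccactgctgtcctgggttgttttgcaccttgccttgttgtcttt

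The NR_003633 probe read 5.05, 5.22 and 4.21 in F9 and -5.61, -4.84 and -5.05 in GC-2, with no GC-2 array above background, at least 225.5-fold (difference 10.00, SE 0.36, adjusted p = 1.56e-06). The ENSMUST00000129245 probe, for a transcript over the 5′ part of the locus (chr12:109541001-109545319), was at least 203-fold higher (difference 9.88). Both sets of arrays were wholly separate. The ENSMUST00000150851 probe, for a short transcript inside the locus (chr12:109549255-109549775), was above background in both lines, with 6.57, 6.69 and 6.89 in F9 and 5.93, 5.97 and 5.84 in GC-2 (difference 0.80, SE 0.25, adjusted p = 0.059). The uc007pat.2 probe read 3.49, 3.92 and 2.79 against 1.24, 1.28 and 1.37 (difference 2.10, SE 0.33, adjusted p = 0.0029), under the 5-fold limit. The NR_027651 probe, which the annotation also assigns to NR_003633, differed by 0.37 (adjusted p = 0.41). The NR_046475 probe and the probe without a known sequence, ENSMUST00000128178, differed by 2.78 and 3.00 (adjusted p = 0.0072 and 0.00046). Both were above background on 2 F9 arrays and on no GC-2 array, so they missed the call. By adjusted p alone, 5 of the 7 probes were above in F9, where 9.99% of all probes were. Thus probes assigned to the same gene gave differences from 0.37 to 10.00, and from 0.50 to 9.77 without GC-2 replicate 1.

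The remaining imprinted lncRNAs include the most studied. H19, on chromosome 7, which the maternal copy expresses in fetal tissues, read 8.37, 9.56 and 9.71 in F9 and 8.10, 9.27 and 9.35 in GC-2, with overlapping arrays (difference 0.31, SE 0.47, adjusted p = 0.63, and -0.10 without GC-2 replicate 1). In both lines replicate 1 was the lowest, and within the slides the differences were 0.28 (replicate 1) and 0.32 (replicates 2 and 3). Kcnq1ot1, a silencer of its domain on the same chromosome, differed by 0.66 (SE 0.25, adjusted p = 0.12). The 3 probes of Nespos, an antisense transcript of the Gnas domain on chromosome 2, differed by 1.84, 1.53 and 0.19, with adjusted p of 0.018, 0.011 and 0.57, all under the 5-fold limit. Airn, which silences the Igf2r domain, was above background on no array of either line. Peg13, a paternally expressed transcript within an intron of Trappc9 on chromosome 15, was the imprinted lncRNA higher in GC-2. It read 1.31, 3.25 and 3.22 in GC-2 and -3.97, -1.51 and -1.91 in F9 (difference -5.06, SE 0.73, adjusted p = 0.0018). Replicate 1 was again the lowest in each line, the difference was -5.70 without GC-2 replicate 1, and the call was lost in the methods' t-test after adjustment.

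Gas5, a host of small nucleolar RNAs whose spliced RNA builds up in growth-arrested cells, had 9 identified probes, of which 1 was called. The 8 with a sequence are shown because they are named for different transcripts of the same short locus on chromosome 1 (GRCm38 chr1:161034601-161038539, plus strand). The array's annotation assigns most of them to further Gas5 transcripts as well, so they do not read separate splice products. Capitals mark runs of at least 15 bases that another of the 8 probes holds.
ENSMUST00000159890: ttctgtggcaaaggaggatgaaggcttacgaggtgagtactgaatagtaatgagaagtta
ENSMUST00000160551: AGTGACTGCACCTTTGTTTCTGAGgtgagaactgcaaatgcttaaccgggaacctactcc
ENSMUST00000159663: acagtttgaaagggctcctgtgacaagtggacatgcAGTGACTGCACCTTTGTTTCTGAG
ENSMUST00000162558: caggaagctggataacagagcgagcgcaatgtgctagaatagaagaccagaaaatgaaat
ENSMUST00000160152: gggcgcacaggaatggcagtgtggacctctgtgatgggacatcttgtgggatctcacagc
ENSMUST00000160429: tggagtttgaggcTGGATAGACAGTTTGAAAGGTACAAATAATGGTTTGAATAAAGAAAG
uc007det.1: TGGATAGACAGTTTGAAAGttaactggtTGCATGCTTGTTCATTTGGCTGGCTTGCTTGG
ENSMUST00000161380: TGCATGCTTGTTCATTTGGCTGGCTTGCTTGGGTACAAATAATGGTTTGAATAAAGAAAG

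The ENSMUST00000159890 probe shares no such run with the others, and the array's annotation lists 3 more Gas5 transcripts as its targets. It read 1.25, 1.71 and 1.06 in F9 and 8.58, 6.76 and 6.52 in GC-2, above background on all 6 arrays, and was 61.7-fold higher in GC-2 (difference -5.95, SE 0.53, adjusted p = 0.00012). Without GC-2 replicate 1, which was the highest, the difference was -5.30 (adjusted p = 0.00011). The other 8 probes had differences between -1.28 and 0.45, and none passed the adjusted p. Among them, the ENSMUST00000162558 probe is also assigned to ENSMUST00000159890 by the annotation, and it differed by -1.10 (adjusted p = 0.25). Without GC-2 replicate 1, the uc007det.1 and ENSMUST00000161380 probes differed by 1.26 and 1.36, with adjusted p of 0.014 and 0.0100, under the 5-fold limit. For example, the ENSMUST00000160429 probe read 8.44, 8.26 and 8.17 in F9 and 9.86, 8.20 and 8.13 in GC-2 (difference -0.44, SE 0.46). GC-2 replicate 1 was the highest GC-2 array at all 9 probes. The probes of this gene thus gave differences from -5.95 to 0.45, and a call in GC-2 at 1 of 9.

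**Figure D5:**
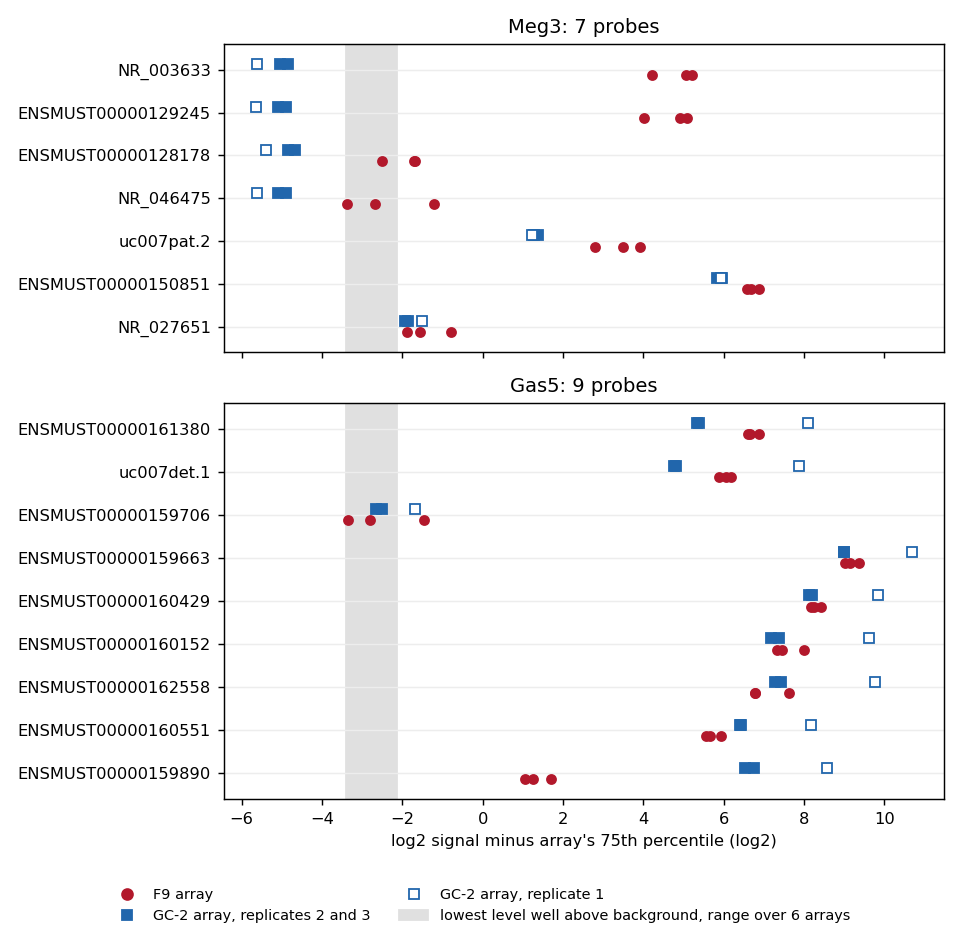
Level of each identified Meg3 probe (upper panel, 7 probes) and Gas5 probe (lower panel, 9 probes) in every array. Red circles are F9 arrays, filled blue squares GC-2 replicates 2 and 3, open blue squares GC-2 replicate 1, and the grey band spans the lowest level well above background. The Meg3 probes NR_003633 and ENSMUST00000129245 separate the lines by about 10.00 and 9.88 while ENSMUST00000150851 nearly joins them, and at Gas5 the lines are far apart at ENSMUST00000159890 alone, with a smaller gap of -1.28 at ENSMUST00000160551.

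The other snoRNA hosts were present in both lines and not called, apart from Snhg11, which was above background on a single array. Snhg1 read 5.82, 4.97 and 4.88 in F9 and 8.36, 4.72 and 4.79 in GC-2, so its difference of -0.74 (adjusted p = 0.54) became 0.47 without GC-2 replicate 1. Dancr differed by 1.08 (SE 0.25, adjusted p = 0.019), with the F9 arrays above all GC-2 arrays but within 5-fold. Of the nuclear-retained lncRNAs, Neat1, the scaffold of paraspeckles, read 3.65, 3.04 and 1.85 against 7.34, 3.85 and 4.11. Its difference moved from -2.25 (SE 0.90, adjusted p = 0.13) to -1.13 without GC-2 replicate 1. The 3 probes of Malat1, the abundant RNA of nuclear speckles, differed by -1.23, -1.17 and -1.02, and Tug1 by -1.07, with adjusted p between 0.0504 and 0.147. None of the 5 probes of this list was called.

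LncRNAs of differentiated tissue were rarely detected in either line. Of the 595 brain-specific probes, 41 were above background on all 3 F9 arrays and 39 on all 3 GC-2 arrays, and 28 (4.71%) were higher in F9 and 17 (2.86%) in GC-2, beside 3.04% and 3.08% of all probes. Among the 9 probes of neural lncRNAs, 7 were above background on no array of either line. Dlx1as was present in both, with a difference of 0.37, and a transcript of Gap43, the growth cone protein gene, was higher in F9 with 5.66, 4.79 and 5.03 against 1.75, 0.62 and 0.60 (difference 4.17, SE 0.40, adjusted p = 0.00018). Of 104 heart-specific probes, 1 was higher in F9 and 6 in GC-2, of 102 kidney-specific probes 4 and 1, of 48 liver-specific probes none, and of the 165 testis-specific probes of the partial list used here 1 and 3.

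Some identified transcripts depended on GC-2 replicate 1, and they are named after their values were seen. It was over 8-fold above the other GC-2 arrays at 26 identified probes and over 8-fold below at 7. A transcript of H2-Bl, an MHC class I gene, read 6.78, 6.80 and 7.13 in F9 and 3.38, -4.71 and -4.24 in GC-2, and was called with and without that array. A transcript of Setdb2, a SET domain gene, read 5.36, 4.05 and 4.17 against 5.70, -1.42 and -0.63, and one of Atf3, a stress-induced transcription factor gene, 1.25, 1.66 and 1.82 against 3.68, -1.36 and -1.67. AA467197 read -0.96, -1.03 and -0.88 against 2.12, -4.82 and -5.11. Setdb2, Atf3 and AA467197 were not called with the array and were higher in F9 without it. This array was the only GC-2 array on its slide. Whether culture or handling differed for it is not given in the labels, and the part of array or slide in these values was not tested.

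Of 64 lncRNA symbols with 2 or more identified probes, 19 had a called probe, where 6.12% of all probes were called in either direction. A symbol with several probes has more chances of a call, so this count is a description. In 7 of them all probes were called and in 12 only some were, and no symbol had probes called in opposite directions. The 46 probes of ribosomal protein pseudogenes, grouped after their values were seen, were all above background on all 6 arrays. None of the 46 was called, beside the 6.12% of all probes, and they are too few to set against that share. Their differences ran from -1.32 to 2.17 with a median of 0.86, beside medians of 0.70 and 0.53 over the lncRNAs abundant in F9 and in brain.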

How the data were processed

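Total RNA of F9 and GC-2 cells was hybridised in 1 colour (Cy3) to mouse lncRNA arrays, 3 per line. The deposited files hold, per spot, the intensity as written by Agilent Feature Extraction (processed, median and background signals with detection flags), and the table that the authors deposited for the series repeats the processed intensity, so its fit gave the same counts and is no independent check. Each array's 60804 non-control probes were divided by the array's 75th percentile and put on the log2 scale, and 14 spots with outlier flags over the 6 arrays were left out. No spot was saturated. Lines were compared with limma 3.58.1 in R 4.3.3 (lmFit, eBayes, Benjamini-Hochberg over all probes), and the fit was tested on simulated data. Figures and counts used Python 3.11.15. A probe was called at an adjusted p of 0.05, a fold of 5 and detection on all 3 arrays of the higher line.

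Names, positions (GRCm38) and probe sequences came from the study's transcript lists, RefSeq gene spans and types from the GRCm38.p6 gene table, and 1088 of 1093 lncRNAs overlapped the RefSeq gene of their symbol. Named genes were the markers Zfp42 and Stra8, the identified members of the gene lists, and, for lncRNAs and mRNAs, the 10 called probes with the largest difference in each direction and no overlap between lines. The members and lists were chosen with earlier results of these data known. Alternatives were normexp (offset 50, on median signals in place of the planned mean signals), quantile normalization, another percentile set, a detection filter, the detection flag, blocks for replicate number and slide, the slide of replicates 2 and 3 alone, all 9 cell line arrays, the deposited table, the methods' t-test, and leaving out each array. The number of arrays limits the precision. The result of 1 named gene is not reported here.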

Additional observations from a re-analysis of the deposited data

How the results depend on the processing

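The counts of 1850 probes higher in F9 and 1873 higher in GC-2 moved by less than 1.5 times under each alternative except normexp, which left 630 and 640. The offset of normexp raises dim signals by construction. Under normexp the called probes higher in F9 were 4 of the pluripotency list, 1 of early meiosis, 2 of the piRNA and bridge list, 0 of the developmental transcription factors, 0 of mitosis, 1 of chromatin and 2 of the imprinted lncRNAs. Those higher in GC-2 were 0 developmental transcription factors, 0 spermatid genes and 1 nuclear-retained lncRNA. With the looser detection flag, 7 imprinted lncRNA probes were higher in F9, and with the methods' t-test after Benjamini-Hochberg adjustment 0 were higher in GC-2. That t-test called 1839 and 1859 probes at its unadjusted threshold and 1640 and 1534 after adjustment.

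Leaving out each array in turn gave 1837 to 1921 probes higher in F9 and 1785 to 2000 higher in GC-2. It gave 0 to 1 spermatid probes higher in GC-2, with 0 without F9 replicate 2 or 3, and 4 to 7 imprinted lncRNA probes higher in F9, with 7 without F9 replicate 3. An arm left with 2 arrays was tested with the spread pooled across both lines. The median difference over all probes was 0.52, and 0.01 under quantile normalization, 0.32 under normexp and 0.48 with the percentile over commonly detected probes. Of the 172 named probes, none that was called changed its direction under the 18 alternatives, but 34 of the 69 called ones kept their call under all of them, with 33 of the named calls lost under normexp, while 31 of the 103 uncalled ones changed sign under at least 1. Arrays of the same replicate number deviated together with correlations of 0.23, 0.14 and 0.07 over all probes and 0.25, 0.18 and 0.12 over probes detected on all 6 arrays. Replicates 2 and 3 share a slide and also correlated across numbers (0.15 and 0.09 over all probes), so the numbers were not taken to pair the arrays. With the replicate block the counts were 1822 and 1832 and no named call changed, and with the slide as a block 1857 and 1887. Probes below background carry only bounds, and with 3 arrays per line small differences were not detectable.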
